A study of Homo sapiens with 4 samples.

Results

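The genes described here are the zinc finger genes of human chromosome 19 whose symbol is ZNF followed by a digit, taken as every protein-coding gene of that name in GENCODE release 44 that has a row in the expression table. There were 249 such genes among 58735 listed genes. RNA-seq had been performed on cells labelled NB4, a human acute promyelocytic leukemia cell line, as 2 libraries labelled GNE-987 control and 2 treated with GNE-987. The labels do not state whether the control cells received a vehicle. GNE-987 is a chimeric degrader that links its protein targets to a ubiquitin ligase, and the dose of 25 nM and the time of 24 h were taken from the study's description of the experiment. The libraries are not described as separate cultures, so the P values below measure the spread between libraries only.

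C2H2 zinc finger proteins read DNA with arrays of short fingers, each held in shape by a zinc ion, and form the largest family of human transcription factors. Many of those on chromosome 19 lie side by side in clusters that arose by tandem duplication, and most carry a KRAB domain next to the fingers. The KRAB domain binds the scaffold protein TRIM28, which brings in the histone methyltransferase SETDB1, HP1 proteins and the NuRD complex, and the best known targets of this repression are transposable elements.

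The control libraries held 19469560 and 19273014 reads on genes and the GNE-987 libraries 12399580 and 12905073, read from the steps in which FPKM values change. FPKM is the number of fragments per kilobase of gene and per unit of library size, and it had been scaled to totals of 23024012 and 22120718 in control and 8360488 and 8826052 with GNE-987, so the treated libraries were scaled to less than their own reads on genes. The granule gene MPO, a defining marker of promyelocytes, stood at 0.0246 and 0 FPKM in control and at 11.8 and 11.3 FPKM with GNE-987, and the granule genes ELANE and CTSG were at 0 in both control libraries. GATA1, an erythroid transcription factor, stood at 124 and 122 FPKM in control and at 15.1 and 12.5 FPKM with GNE-987. Of 9 promyelocyte and myeloid markers, 3 reached 1 FPKM in a control library, and their summed level was 12.9 and 11.1 FPKM in control and 38.8 and 37.2 FPKM with GNE-987. Of 10 erythroid markers, 9 reached that level, with sums of 323 and 324 FPKM in control and 383 and 334 FPKM with GNE-987. The sums over 4 megakaryocyte markers were 0.485 and 0.472 FPKM in control and 3.84 and 5.22 FPKM with GNE-987, those over 3 B cell markers were 0.936 and 0.950 FPKM against 23.7 and 22.1 FPKM, and those over 3 T cell markers were 16.2 and 15.3 FPKM against 21 and 22 FPKM. The control libraries thus lacked defining markers of the cell line on their label and held those of erythroid cells, and the markers moved with the groups compared here. Nothing in the labels says that the control and GNE-987 libraries came from the same culture, so a difference between cultures and the effect of GNE-987 cannot be told apart in any value below. In bulk RNA, fewer cells of a type and less RNA per cell cannot be told apart.

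Chromosome 19 ZNF genes were transcribed at low levels. Of the 249 genes, 34 were listed at 0 in all 4 libraries, 72 were above 0 but below the filter of a mean of 0.5 FPKM, and 143 were tested. The median over the 249 genes was 0.577 and 0.562 FPKM in the control libraries and 0.629 and 0.715 FPKM in the GNE-987 libraries, and the members' summed level was 409 and 399 FPKM against 571 and 563 FPKM. Among the tested genes, the median control level was 1.71 FPKM, compared with 2.63 FPKM over all 16668 tested genes. In control, 7 members had a mean over 10 FPKM, and with GNE-987 12 did. In reads, the members took 47387 and 45665 reads in control and 24591 and 25670 with GNE-987, so a single gene was often measured by few reads in the treated libraries.

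With GNE-987, 48 members were called higher and 37 lower, shares near those of the whole table. A gene was called where limma's unadjusted P value was under 0.05 and expression changed by a factor over 2 or under 0.5. At these thresholds 48 of the 143 tested members (33.6%) were higher with GNE-987, where 33.6% of all tested genes were higher, and 37 members (25.9%) were lower, where 24.9% of all tested genes were lower. A further 58 were not called. All 85 calls held at a Benjamini-Hochberg adjusted P value under 0.05 from limma, with the same counts of 48 and 37, where 33.2% and 24.6% of all tested genes passed. The median log2 fold change of the members was 0.26, with quartiles of -1.06 and 1.55, beside a median of 0.17 over all tested genes. The scaling of the libraries moved this split. When values were scaled to the total of recovered reads, 30 members were higher and 57 lower, and when GAPDH was set equal in every library, 13 were higher and 87 lower. The median of all genes moved with them, to -0.57 and -1.61, and the members' median less that of all genes stayed at 0.08 and 0.09, as it was at 0.08 with the deposited scaling. Directions below are those of the deposited scaling.

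**Figure D1:**
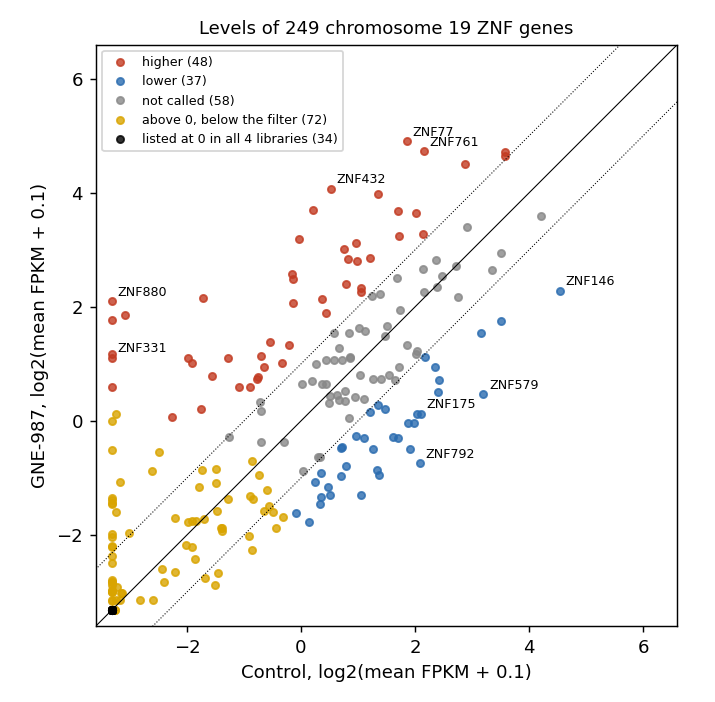
Mean FPKM of the 249 chromosome 19 ZNF genes in the 2 control libraries (x axis) and the 2 GNE-987 libraries (y axis), both as log2(FPKM + 0.1). The solid line marks equal levels and the dotted lines a fold of 2 in either direction, and colors give the outcome of the test. A column of genes at 0 in control stands at the left edge, with ZNF880 and ZNF331 among its called members, and ZNF146 has the highest control level.

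Other gene groups differed in their shares, although no test of the difference between groups was made. Of the 266 ZNF genes on other chromosomes, 180 were tested, 39 were higher (21.7%) and 79 lower (43.9%), with a median log2 fold change of -0.89. Of the 1219 other protein-coding genes of chromosome 19, 713 were tested, 224 were higher (31.4%) and 159 lower (22.3%), with a median of 0.16. Over all protein-coding genes the shares were 24% higher and 31.7% lower, with a median of -0.29. The share of genes listed at 0 throughout was 13.7% of the chromosome 19 ZNF genes, 11.7% of the ZNF genes elsewhere and 16.5% of all protein-coding genes.

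The members were next described by position along the chromosome. A new cluster was started wherever the next member began over 500 kb after the genes before it ended, which gave 10 clusters of 5 or more members. The largest number of increases lay in the cluster from ZNF175 to ZNF331 (hg38, with positions from GENCODE, chr19:51571283-53580269). It held 40 members, of which 30 were tested, 20 were higher, 3 were lower and 7 were not called, and their median log2 fold change was 1.62. The filter on the mean of all 4 libraries admits a gene that is high in one group alone, and such a gene had to differ, so these counts are a description. In the cluster 6 tested members had a control mean under 0.5 FPKM, all 6 of them called higher, and 1 had a GNE-987 mean under it and was called lower. Of the 23 members with both means at or above 0.5 FPKM, 14 were higher and 2 lower, with a median of 1.51. Over all members, 18 passed with a control mean under 0.5 FPKM, of which 17 were higher, and 15 with a GNE-987 mean under it, of which 14 were lower. The summed level of the 40 members was 59.6 and 63.0 FPKM in control and 188 and 179 FPKM with GNE-987. Outside this cluster, 113 members were tested, 28 were higher and 34 lower, and their median was -0.19. With total-read scaling the cluster had 13 higher and 3 lower members, and with GAPDH scaling 7 higher and 9 lower. Its median less that of all genes was 1.45 with the deposited scaling, 1.43 with total-read scaling, 1.42 with GAPDH scaling and 1.67 after quantile normalization. Leaving out each library in turn kept 20 or 21 higher and 2 or 3 lower members there. This cluster was singled out after its values were seen, and no test between clusters was made.

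**Figure D2:**
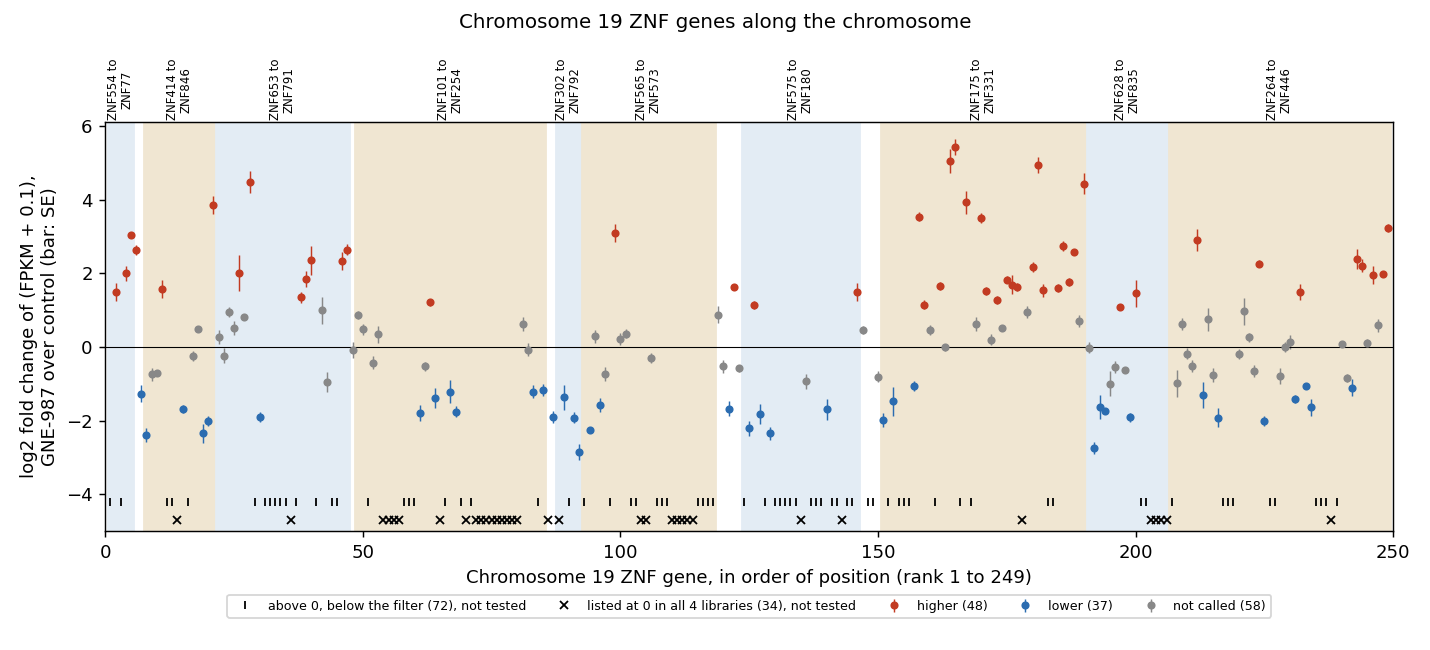
The x axis ranks the 249 genes by position on chromosome 19 and the y axis gives the log2 fold change of FPKM + 0.1, GNE-987 over control, with bars for the SE. Shaded bands mark the 10 clusters of 5 or more members, and ticks and crosses at the bottom mark the 72 genes below the filter and the 34 listed at 0. The 30 tested genes from ZNF175 to ZNF331 reach from -1.98 to 5.42 and lie mostly above 0, whereas the 3 tested genes from ZNF302 to ZNF792 lie below 0.

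Within this cluster, genes with few or 0 reads in control appeared with GNE-987. ZNF880 had 0 reads in control, and it measured 4.15 and 4.23 FPKM with GNE-987, from 129 and 139 reads. ZNF610, its neighbor, had 0 reads in control and measured 4.05 and 2.56 FPKM with GNE-987. ZNF331, an imprinted gene at the far end of the cluster, had 0 reads in control and 1.92 and 2.20 FPKM after treatment. All of these values lay apart from control, and with a floor of 3 reads in each control library ZNF880 was at least 117-fold higher, ZNF610 at least 88.1-fold higher and ZNF331 at least 138-fold higher with GNE-987. ZNF534 was at 0 in control and at 1.35 and 1.49 FPKM with GNE-987, which is at least 69.9-fold higher. ZNF415 had 2 reads and 1 read in the control libraries and 106 and 122 reads with GNE-987, a ratio of 200 with an exact 95% interval of 67.5 to 975 for counting error only. Fitted log2 fold changes of such genes depend on the constant of 0.1 FPKM added before the logarithm and were 5.42 for ZNF880, 5.05 for ZNF610, 4.94 for ZNF415, 4.43 for ZNF331 and 3.92 for ZNF534. The least folds and the ratio above hold for the deposited scaling only and would be smaller with total-read or GAPDH scaling. Those scalings moved the median log2 fold change of all genes from 0.17 to -0.57 and -1.61. ZNF615 and ZNF578, below the filter, were also at 0 in control and reached 0.928 and 0.879 FPKM and 0.599 and 0.615 FPKM with GNE-987. Over the table, 39.9% of genes above 0 in any library had both GNE-987 libraries above both control libraries and 28.3% had both below, and 96 and 81 members did. Reading along the chromosome, 8 consecutive members from ZNF610 through ZNF880, ZNF528, ZNF534, ZNF578, ZNF808 and ZNF701 to ZNF83 had both GNE-987 libraries above both control libraries, and so did 7 consecutive members from ZNF677 to ZNF331.

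Genes of the cluster that were already transcribed in control rose as well. ZNF432 was at 1.44 and 1.26 FPKM in control and at 18.1 and 15.3 FPKM with GNE-987 (log2 fold change 3.53 ± 0.128, SE, n = 2 per group). Some of its exon bases, 16.9%, are shared with another listed gene, so reads there could have been assigned to either. ZNF701 went from 0.929 and 1.17 FPKM to 13.1 and 12.7 FPKM, and ZNF761 from 4.28 and 4.41 FPKM to 27.3 and 25.5 FPKM. These groups did not overlap, and ZNF761 became the member of the cluster with the highest level. By contrast, ZNF175, the first gene of the cluster and known as a repressor of HIV-1, fell from 4.47 and 3.94 FPKM to 1.13 and 0.858 FPKM. ZNF649 and ZNF614 also fell, and ZNF480, in the middle of the cluster, was at 6.34 and 6.66 FPKM in control and at 6.06 and 6.82 FPKM with GNE-987 (log2 fold change -0.02, 95% interval -0.27 to 0.24). ZNF350, known as ZBRK1 and as a partner of BRCA1, was below the filter at 0.211 and 0.169 FPKM in control and 0.369 and 0.325 FPKM with GNE-987. In the same stretch of the chromosome, 4 other protein-coding genes were tested, of which 2 were higher and 1 was lower. ZNF701, ZNF761, ZNF175, ZNF649, ZNF614 and ZNF350 were chosen for mention after their values were seen, as were the genes named for their reads or their place in a run.

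**Figure D3:**
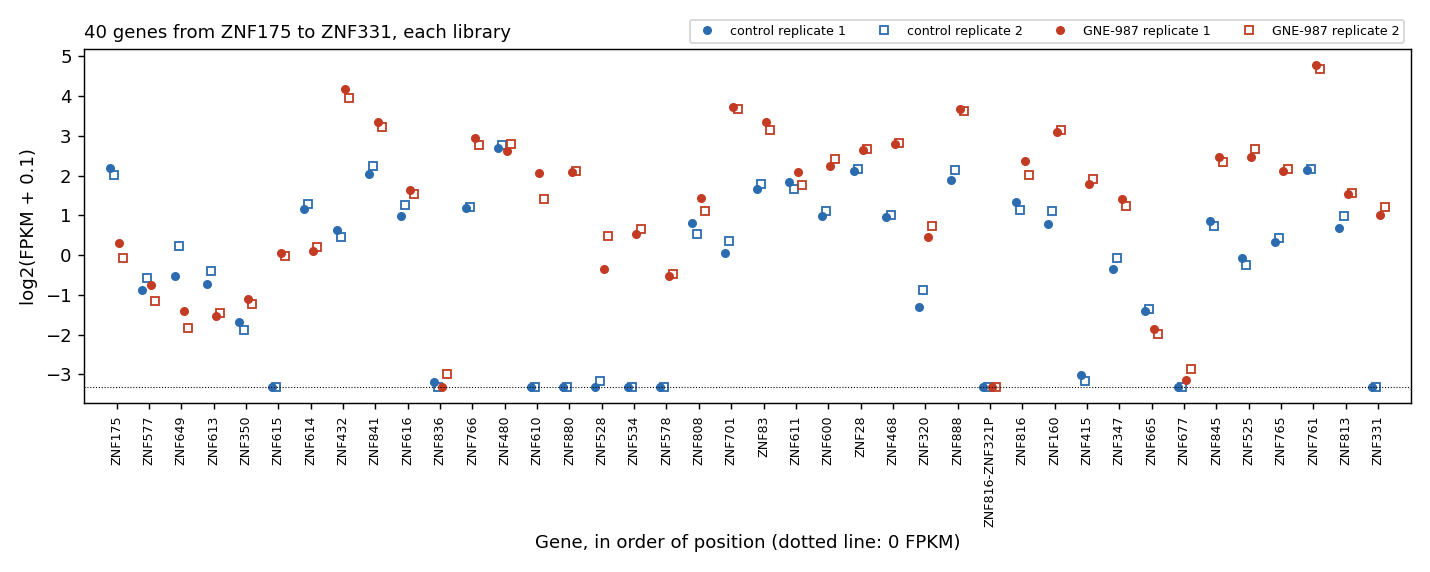
Level of each of the 40 genes from ZNF175 to ZNF331 in every library, as log2(FPKM + 0.1), in order of position. Blue marks the control libraries and red the GNE-987 libraries, with circles for replicate 1 and squares for replicate 2, and the dotted line marks 0 FPKM. The red points of ZNF610, ZNF880, ZNF534, ZNF578, ZNF615, ZNF415 and ZNF331 stand above blue points at or near the dotted line.

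Over all members, 73 had at most 3 reads in each control library, and 13 of these (17.8%) reached 10 or more reads in each GNE-987 library, where 4.36% of all genes that low in control did so. Genes at 0 in all 4 libraries count as low here. They made up 44% of all listed genes but 13.7% of the members, so these shares are not like for like. Of the 13, 8 lay in the cluster from ZNF175 to ZNF331, where 11 members were that low in control. The other 5 were ZNF556, ZNF439, ZNF382, ZNF229 and ZNF773. ZNF439 was at 0 in control and at 2.41 and 1.89 FPKM with GNE-987, at least 84.3-fold higher with the deposited scaling. In the opposite direction, 2 of 58 members (3.45%), ZNF230 and ZNF235, dropped to 3 or fewer reads per GNE-987 library from 10 or more per control library. Of all genes that low with GNE-987, 1.26% did so, with the same limit. The treated libraries were the shallower pair, so a gene missing from them is the weaker observation.

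The other clusters ranged from mostly higher to mostly lower. At the start of the chromosome, the 3 tested members of the cluster from ZNF554 to ZNF77 (chr19:2819868-2944971) were all higher. With total-read scaling 2 of them were higher and with GAPDH scaling 1, and 0 were lower. With no filter 4 of its 5 members were higher and 1 was lower. ZNF555 had a control mean of 0.483 FPKM, under the filter of 0.5 FPKM, and ZNF57 shares 75.2% of its exon bases with another listed gene. ZNF77 (chr19:2933218-2944971) went from 3.53 and 3.52 FPKM in control to 29.6 and 30.1 FPKM with GNE-987, a log2 fold change of 3.05 ± 0.0535 (SE). It was the member with the highest GNE-987 mean among all 249. In the cluster from ZNF653 to ZNF791 (chr19:11483427-12640098), 7 of 15 tested members were higher and 1 was lower, with a median of 0.99. This balance turned with the scaling, to 5 higher and 2 lower members (median 0.30) with total-read scaling and to 1 higher and 5 lower (median -0.66) with GAPDH scaling. In the cluster from ZNF264 to ZNF446 (chr19:57191500-58481230), at the end of the chromosome, 32 members were tested, 8 were higher and 7 lower, with a median of 0.04, which became 7 and 13 with total-read scaling and 2 and 22 with GAPDH scaling. The gene that changed most there was ZNF446, at 0.812 and 0.946 FPKM in control and 8.84 and 9.25 FPKM with GNE-987, although 60.4% of its exon bases are shared with another listed gene.

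Shares of lower members in the clusters that follow are to be read against the 24.9% of all tested genes that were lower. That background was 39.9% with total-read scaling, 58.4% with GAPDH scaling and 17.7% with a pseudocount of 1. All 3 tested members of the cluster from ZNF302 to ZNF792 (chr19:34677639-34964229) fell. ZNF792 (chr19:34956354-34964229) showed the largest decrease of all tested members, from 4.07 and 4.26 FPKM to 0.593 and 0.401 FPKM (log2 fold change -2.85 ± 0.211, SE). Its GNE-987 mean was just under the filter of 0.5 FPKM, so it passed through its control level and had to differ. At a mean of at least 1 FPKM 2 members of this cluster were tested, and both were lower. In the cluster from ZNF101 to ZNF254 (chr19:19668796-24129968), 37 members were listed, 15 were at 0 in every library, 14 were tested, 1 was higher and 6 were lower. These counts moved with the processing. With total-read scaling 0 were higher and 8 lower, with GAPDH scaling 0 and 12, and with a pseudocount of 1 only 0 and 1. The called member that changed most there was ZNF430, at 1.17 and 1.15 FPKM in control and 0.280 and 0.248 FPKM with GNE-987. Its GNE-987 mean was under the filter of 0.5 FPKM, and it lost the call with a pseudocount of 1 (log2 fold change -0.77). That stretch also held the longest run of members listed at 0, 9 in a row from ZNF676 to ZNF724. Of the 23 members from ZNF575 to ZNF180, 14 were below the filter, and of the 7 tested, 4 were lower and 2 higher, with a median of -1.70. That median rested on the filter: at a mean of at least 1 FPKM 4 members were tested, 2 higher and 2 lower, with a median of -0.54, and with no filter 21 were tested, 4 higher and 7 lower, with a median of -0.49. The summed level of the 23 members was higher with GNE-987, at 33.0 and 33.6 FPKM against 24.9 and 22.3 FPKM in control. This rise came from ZNF428, a member of the cluster whose levels are given below. Apart from ZNF428, the summed level was lower with GNE-987. From ZNF628 to ZNF835, 4 of 10 tested members were lower and 2 higher, and the same counts held from ZNF414 to ZNF846. With total-read scaling 7 were lower and 0 higher in the former cluster, and 6 and 1 in the latter. With GAPDH scaling 8 were lower in each, with 0 higher in the former and 1 in the latter. In the cluster from ZNF565 to ZNF573, 2 of 8 were lower, 5 were not called and the median was -0.04. The remaining 1, ZNF461, was higher, at 0.124 and 0.183 FPKM in control and 2.19 and 1.89 FPKM with GNE-987. Its control mean was under the filter of 0.5 FPKM, so it too had to differ. With total-read scaling 4 of the 8 were lower and 1 higher, and with GAPDH scaling 7 and 1. Among 126 pairs of tested members that followed each other within a cluster, 31 were both called in the same direction and 16 were called in opposite directions. These pairs include those of the cluster from ZNF175 to ZNF331, where most tested members were higher. Of all tested members 33.6% were higher and 25.9% lower, and the number of pairs due to these shares alone was not worked out. The counts are therefore no result about neighbors.

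**Figure D4:**
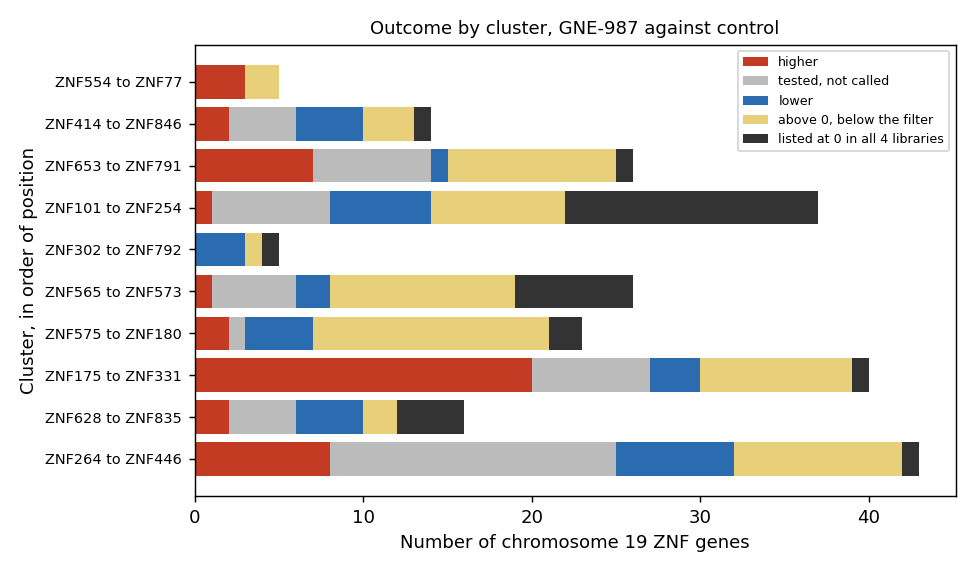
Number of chromosome 19 ZNF genes in each cluster of 5 or more members, from the start of the chromosome at the top, split by outcome of GNE-987 against control. The bar from ZNF175 to ZNF331 has 20 higher members of 40, and the bar from ZNF101 to ZNF254 has 15 of 37 members listed at 0.

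The remaining largest decreases spanned several clusters. ZNF579 fell from 9.63 and 8.58 FPKM to 1.44 and 1.13 FPKM, a log2 fold change of -2.74. ZNF414 fell by 2.40 on the log2 scale, ZNF561 by 2.35, ZNF45 by 2.35, ZNF576 by 2.22 and ZNF551 by 2.02, and in each of these genes both GNE-987 libraries lay below both control libraries. ZNF846, close to ZNF561 on the chromosome, moved the other way, from 0.200 and 0.208 FPKM to 3.55 and 5.16 FPKM. It shares 12% of its exon bases and 18.3% of its 100-base windows with other genes. A gene with a mean under 0.5 FPKM in either group had to differ to pass the filter. Examples are ZNF561 with GNE-987 (0.417 FPKM) and ZNF846 in control (0.204 FPKM).

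The 6 members with the highest control levels matched none of the KRAB patterns described below. ZNF146, which consists of zinc fingers alone and has no KRAB domain, was the most abundant in control at 23.3 and 23 FPKM and fell to 5.08 and 4.45 FPKM (log2 fold change -2.26 ± 0.0854, SE), with 10.8% of its exon bases shared with another listed gene. ZNF787 was at 18 and 19 FPKM in control and 12 and 11.9 FPKM with GNE-987, and was not called with the deposited scaling (log2 fold change -0.62), but was called lower with total-read scaling (-1.40) and with GAPDH scaling (-2.47). ZNF865 fell from 11.5 and 10.9 FPKM to 3.14 and 3.42 FPKM. ZNF428 was higher, at 12.9 and 10.9 FPKM in control and 26.3 and 26.0 FPKM with GNE-987, and so was ZNF581, at 12.1 and 11.5 against 25.4 and 24.8 FPKM. Both lost the call with total-read scaling and with GAPDH scaling, where their log2 fold changes turned to -0.71 and -0.76. They share 32.1% and 24.9% of their exon bases with other listed genes. ZNF580 overlaps ZNF581 in exons and was not called, at 12.3 and 10.2 FPKM in control and 6.84 and 8.46 FPKM with GNE-987, although it too was called lower with total-read scaling (-1.32) and with GAPDH scaling (-2.39).

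Among members above 5 FPKM in control, those with the smallest changes were ZNF480, ZNF628, ZNF274 and ZNF296. ZNF274, a KRAB protein known to bring SETDB1 to the ends of other zinc finger genes, was at 5.26 and 5.60 FPKM in control and 5.60 and 5.85 FPKM with GNE-987. Its log2 fold change was 0.07 with a 95% interval of -0.14 to 0.29. ZNF628 was at 5.72 and 4.53 FPKM against 4.72 and 5.27 FPKM, with an interval of -0.45 to 0.39. ZNF296 was at 5.43 and 4.64 FPKM against 7.06 and 6.82 FPKM, which passed the P value but not the fold threshold (log2 fold change 0.46).

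The members were also described by the structure of the encoded protein. A pattern for the KRAB A box was found in the coding sequence of 189 members, of which 101 were tested, 35 were higher (34.7%) and 24 lower (23.8%), with a median log2 fold change of 0.46. Of the 60 members without it, 42 were tested, 13 were higher and 13 lower, with a median of -0.54. A wider pattern, chosen after the data were seen, placed 205 members in the KRAB class, and 37 of 111 tested were then higher and 27 lower (median 0.34), against 11 and 10 of 32 without it (median -0.28). Outside the cluster from ZNF175 to ZNF331, the wider class had 82 tested members, of which 18 were higher (22%) and 24 lower (29.3%), with a median of -0.19. Members had a median of 12 fingers. Across the 143 tested members, Spearman's rho of the log2 fold change was 0.09 with the number of fingers, -0.02 with exon length and -0.49 with the control level, which the fold change itself contains. These values are across genes of the same 4 libraries, and genes are not independent replicates.

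Near-identical sequence is a known limit in this family. Of the 249 members, 65 shared over 10% of their exon bases with another listed gene and 42 had over 10% of their 100-base windows in a transcript of another gene. Among the 175 members with neither, 107 were tested, 37 were higher (34.6%) and 27 lower (25.2%). Of the 42 members with shared windows, 16 were tested, 3 were higher (18.8%) and 5 lower (31.2%), with a median of -0.35. The counting is not stated to use strand, so reads of overlapping genes cannot be told apart.

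The promoters of these genes were described by short motifs, which the selection did not use. RefSeq promoters on GRCh38, 300 bases around each gene's start, matched 218 members. The motif CCGGAAG, the core of many ETS factor sites, occurred on either strand in 45.4% of them, in 34.1% of promoters of ZNF genes on other chromosomes, in 13.0% of those of other protein-coding genes of chromosome 19, in 14.4% of those of all protein-coding genes and in 10.7% of all 27305 promoters. Members that rose (47.7%), members that fell (45.5%) and members listed at 0 (51.9%) held it at these shares. CCAAT was found in 54.1% of members, 43.3% of ZNF genes elsewhere, 37.5% of other coding genes of chromosome 19 and 36.6% of all protein-coding genes. GGGCGG was found in 67.9% of members, and in 60.4%, 66.4% and 59.3% of those groups in the same order. TATAAA was found in 1.83% of members, and in 4.15%, 8.03% and 9.62%. The median number of CpG was 20 for members, and 24, 21 and 22 in the same groups. Over all 27305 promoters the values were 35.7% for CCAAT, 44.6% for GGGCGG, 12% for TATAAA and 14 CpG. A match is a description of the letters and not a measured site.

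Promoters with the motif are shown for the 2 largest increases and the 2 largest decreases among the named members that hold it, since both directions share it. They are written 5′ to 3′ on the gene's strand, with CCGGAAG or its reverse complement CTTCCGG in capitals. ZNF880 (chr19:52369673-52369972, plus strand) and ZNF534 (chr19:52428898-52429197, plus strand) rose from 0 FPKM, and ZNF579 (chr19:55580799-55581098, minus strand) and ZNF551 (chr19:57681727-57682026, plus strand) fell. Each holds 1 match.
ZNF880: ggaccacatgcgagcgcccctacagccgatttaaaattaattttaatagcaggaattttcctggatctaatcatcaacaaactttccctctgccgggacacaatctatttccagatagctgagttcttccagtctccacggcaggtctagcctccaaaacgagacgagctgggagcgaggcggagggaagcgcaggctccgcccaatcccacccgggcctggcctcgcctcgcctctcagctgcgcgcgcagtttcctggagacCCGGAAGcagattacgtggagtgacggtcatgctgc
ZNF534: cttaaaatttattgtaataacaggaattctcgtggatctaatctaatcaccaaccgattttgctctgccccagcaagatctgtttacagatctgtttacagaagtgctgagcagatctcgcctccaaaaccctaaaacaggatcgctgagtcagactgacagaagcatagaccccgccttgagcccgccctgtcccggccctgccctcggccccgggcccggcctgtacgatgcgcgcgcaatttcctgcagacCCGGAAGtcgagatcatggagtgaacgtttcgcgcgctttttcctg
ZNF579: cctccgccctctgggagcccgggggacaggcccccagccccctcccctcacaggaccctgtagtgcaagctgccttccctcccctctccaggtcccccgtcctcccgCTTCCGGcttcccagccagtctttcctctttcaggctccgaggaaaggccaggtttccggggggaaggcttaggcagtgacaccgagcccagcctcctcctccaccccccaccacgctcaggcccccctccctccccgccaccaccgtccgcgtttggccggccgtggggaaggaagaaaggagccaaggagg
ZNF551: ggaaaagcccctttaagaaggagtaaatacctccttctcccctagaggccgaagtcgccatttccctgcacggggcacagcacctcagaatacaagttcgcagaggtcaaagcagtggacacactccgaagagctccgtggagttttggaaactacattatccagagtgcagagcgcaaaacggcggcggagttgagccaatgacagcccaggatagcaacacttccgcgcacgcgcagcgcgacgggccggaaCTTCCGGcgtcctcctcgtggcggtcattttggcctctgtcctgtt

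Because KRAB proteins act through shared partners, 28 genes of that machinery were examined as well. All 28 were tested, 3 were higher (10.7%, where 33.6% of all tested genes were), 9 were lower (32.1%, where 24.9% were) and 16 were not called. Their median log2 fold change was -0.42 beside 0.17 over all tested genes. Of all tested protein-coding genes, a closer background, 24% were higher and 31.7% lower, with a median of -0.29. The share of lower genes in the list was thus near that of coding genes. TRIM28, the scaffold that KRAB binds, was at 206 and 196 FPKM in control and 801 and 818 FPKM with GNE-987, a log2 fold change of 2.01 that lost the call at 0.16 with GAPDH scaling and at 0.19 with quantile normalization. SETDB1, which methylates histone H3 for TRIM28, fell from 5.90 and 6.37 FPKM to 1.52 and 1.79 FPKM. The groups of both genes did not overlap, and they moved in opposite directions under the deposited scaling.

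The genes of the HP1 proteins, which bind methylated histone H3, did not move together under the deposited scaling. CBX5, encoding HP1 alpha, rose from 10.02 and 10.39 FPKM to 55.1 and 53.8 FPKM, CBX1, encoding HP1 beta, fell from 25.7 and 25.1 FPKM to 7.63 and 8.11 FPKM, and CBX3, encoding HP1 gamma, was not called at a log2 fold change of 0.46. In the NuRD complex, a deacetylase and chromatin remodeling complex, GATAD2B rose by a log2 fold change of 2.16, and the deacetylase HDAC2 (-1.23), the scaffold MTA2 (-1.03), the histone-binding RBBP4 (-1.28) and the methyl-DNA reader MBD2 (-1.87) fell. CHD3, CHD4, HDAC1, MTA1, RBBP7, GATAD2A and MBD3 were not called. MTA2 lay near the fold threshold and lost the call with median-ratio scaling (-0.92) and with limma-voom on recovered reads (-0.91). Of the HUSH complex, which silences transposable elements with SETDB1, TASOR (-1.65) and PPHLN1 (-1.19) fell and MPHOSPH8 was not called at 0.15. SMARCAD1, a chromatin remodeler that binds TRIM28, showed the largest decrease of the list, from 5.70 and 5.91 FPKM to 1.04 and 1.06 FPKM. The DNA methylation maintenance genes DNMT1 (-0.49) and UHRF1 (0.04) were not called, nor were SUMO2, ATF7IP, ATF7IP2, MORC2 and MORC3. These calls also rest on the deposited scaling. With GAPDH scaling CBX5 (0.56) and GATAD2B (0.33) lost the call, CBX3 was called lower (-1.39), and 25 genes of the list were lower. With total-read scaling 15 were lower, and MTA1, RBBP7, MBD3, DNMT1, SUMO2 and ATF7IP were then among them.

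**Figure D5:**
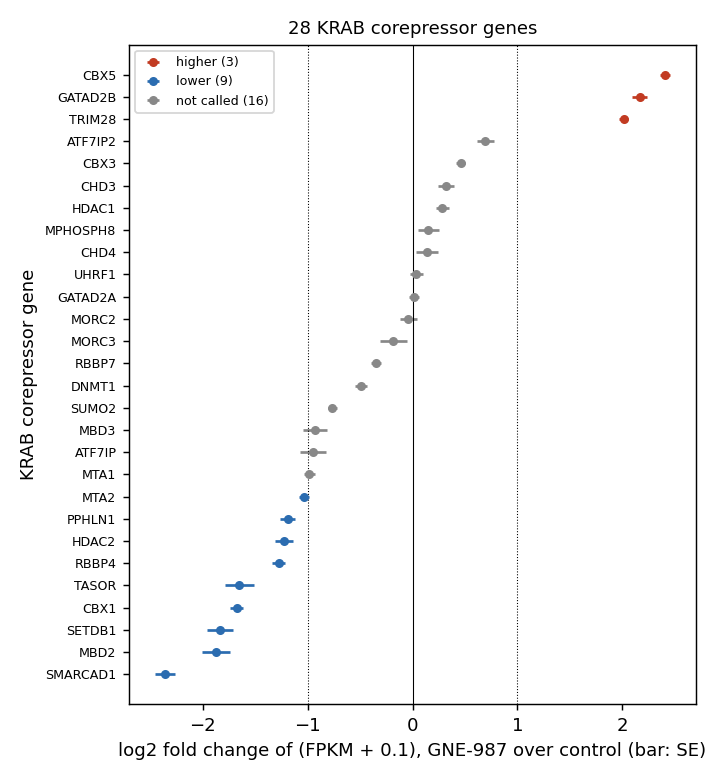
The 28 KRAB corepressor genes, ordered by log2 fold change of FPKM + 0.1, GNE-987 over control (x axis), with bars for the SE and dotted lines at a fold of 2. CBX5, GATAD2B and TRIM28 are called higher at the top, and 9 genes from MTA2 to SMARCAD1 are called lower at the bottom.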

How the data were processed

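RNA-seq of cells labelled NB4 comprised 2 control and 2 GNE-987 libraries, grouped by their labels. Per the labels and the study's methods, the authors extracted RNA with Trizol, prepared TruSeq libraries, filtered the reads and mapped them with HISAT2 2.0.5 to hg38. The deposited values are FPKM per gene and library; the counting program and the annotation are not given in the sources used here. Gene names and positions came from GENCODE release 44, in which 58207 of 58735 identifiers were found.

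After adding 0.1 FPKM and taking log2, and dropping genes that averaged under 0.5 FPKM, 16668 genes were fitted with limma 3.58.1 in R 4.3.3 (empirical Bayes with trend, no block). Adjusted P values are Benjamini-Hochberg over all tested genes. Members and lists were chosen with earlier results of these data known. Named members were the 8 largest increases and 8 largest decreases among called members with groups apart, the 6 highest control means, the 4 smallest changes at a control mean of at least 5 FPKM, the called member with the largest change in each cluster of 5 or more, and a corepressor list, reported for 28 genes (1 further gene planned for it is not reported here); other names are given as exceptions.

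Reads were recovered from the FPKM steps with a tolerance of 0.01 read. At GENCODE exon lengths 17431 of 32627 genes (53.4%) and 61 of 215 members above 0 came out whole, and 15102 further genes at another length, for which reads are less certain: in simulated data 1246 of 1483 such genes were recovered, against 1517 of 1517 at unchanged length. In simulated data of the GNE-987 comparison, limma called 93 of 97 genes changed by a log2 value of 1.5, 97 of 97 changed by 3, and 117 of 12574 unchanged genes. The changed genes there were few and had control means over 0.5 FPKM, the spread between libraries was fixed, and no difference in scaling was simulated. These rates therefore do not cover genes at 0 in control or the effect of scaling. Fingers and KRAB boxes were read from translated GENCODE coding sequences, where RefSeq proteins had been planned. Intervals on reads are exact and cover counting error only. Alternatives were other scalings, limma-voom on recovered reads, pseudocounts, filters, adjusted P values, the replicate block and leaving out each library.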

Additional observations from a re-analysis of the deposited data

How the results depend on the processing

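Scaling set the balance of directions. GAPDH scaling gave 13 higher and 87 lower members, with a median log2 fold change of -1.52, and 0 higher and 25 lower corepressor genes; total-read scaling gave 30 higher and 57 lower members, a median of -0.48 and 15 lower corepressor genes, and quantile normalization a median of -0.16. The median was 0.37 with median-ratio scaling, 0.40 with limma-voom on recovered reads, 0.16 with a pseudocount of 1, which left 19 lower members, and 0.18 with no filter. The members' median less that of all genes was 0.0196 with a pseudocount of 1, 0.25 at a mean of at least 1 FPKM and -0.18 with no filter, where 215 members entered. Leaving out each library in turn gave 45 to 49 higher and 31 to 35 lower members, medians of 0.24 to 0.34 and differences from all genes of 0.0775 to 0.179. The lone library left in a group was then assumed to vary like the other group. The scalings shift every gene by construction; the cause of the other shifts was not tested.

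Over 57 named genes and their alternatives, 775 of 853 values kept their call and direction, and 30 stayed uncalled but changed sign. With the sign kept, 12 lost the call and 24 gained it. A further 12 changed sign and also gained or lost a call, all 12 with GAPDH scaling. ZNF428 (-0.71) and ZNF581 (-0.76), called higher with the deposited scaling, were not called there. The rest were uncalled with the deposited scaling and called lower there: ZNF274 -1.75, ZNF296 -1.37, ATF7IP2 -1.13, CBX3 -1.39, CHD3 -1.52, CHD4 -1.67, HDAC1 -1.57, GATAD2A -1.83, MPHOSPH8 -1.68 and UHRF1 -1.81. The replicate block gave 48 higher and 37 lower members, the same counts as without it. Across genes, the deviations of same-numbered libraries from their group means were nearly uncorrelated (correlation 0.0054). That value cannot show whether same-numbered libraries were prepared together.

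With 2 libraries a group, each group rests on 2 values, and at 8360488 to 8826052 scaling reads the treated libraries measured members at low levels with few reads.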
